A study of Homo sapiens with 8 samples.

Results

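The endoplasmic reticulum (ER) stress genes examined here are 10 chaperones and known targets of the transcription factors XBP1 and ATF6: HSPA5, HSP90B1, CALR, SDF2L1, PDIA4, DNAJB9, XBP1, HERPUD1, SEL1L and EDEM1. They were taken by symbol from an RNA-seq table of 26364 genes, and were chosen with earlier results of these data known. All 10 were in the table, and all 10 were among the 14151 genes tested, which reached 1 TPM in 2 or more libraries. TPM is a gene's share of the reads after division by gene length, scaled to the same sum in every library.

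The libraries came from MV4-11, an established line of acute myeloid leukaemia (AML) with the FLT3-ITD mutation, a tandem duplication in a receptor tyrosine kinase gene, and with the MLL-AF4 fusion, and all 4 groups share this background. The groups were DMSO (the vehicle), TCP (tranylcypromine, an inhibitor of the histone demethylase LSD1, at 5 μM), Palbo (palbociclib, an inhibitor of the kinases CDK4 and CDK6, at 0.5 μM) and PTCP (both drugs at these doses). Each group had 2 libraries. The labels give 4 days of treatment, whereas the methods give 1 day of the CDK6 inhibitor alone followed by 3 days with both drugs, so that whether TCP alone lasted 3 or 4 days cannot be told. The cell line was grown on HS-5, a human bone marrow stromal line, per the study's methods, and a single AML line is a model of that line only. Nothing states that the libraries of a group came from separate cultures, so p-values measure only the spread between these libraries, which may be technical. The comparisons address what CDK4/6 inhibition, LSD1 inhibition and their combination do to the expression programme of these cells.

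Proteins destined for secretion or for membranes fold in the ER with the help of resident chaperones and disulfide isomerases. When unfolded proteins accumulate, the sensors IRE1 (gene ERN1), ATF6 and PERK (gene EIF2AK3) signal to the nucleus. IRE1 splices the XBP1 transcript into the form that encodes an active transcription factor, ATF6 is itself released by proteolysis as a factor, and PERK slows translation while favouring the factor ATF4. XBP1 and active ATF6 raise chaperones and the machinery of ER-associated degradation (ERAD), which returns misfolded proteins to the cytosol for the proteasome.

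Sequence motifs through which these factors act are shown first, because they are what several of the genes share outside the expression values. RefSeq promoters (GRCh38.p14, 250 bases before to 50 after a gene start) were present for all 10 genes, as 12 sequences of 35116, with 2 starts each for PDIA4 and XBP1. The ER stress element, CCAAT and CCACG separated by any 9 bases, was searched on both strands. It was found in 27 of the 35116 promoters (0.0769%), and 4 of the 10 genes held it: HSPA5, HSP90B1 (at 2 places), CALR and XBP1. The sequences below run 5′ to 3′ along the gene, with the element in capitals and 15 flanking bases on each side. Where the element lies on the opposite strand, as in the second site of HSP90B1 and in CALR, the capitals begin with CGTGG and end with ATTGG.
HSPA5 (-66 to -48 from the start): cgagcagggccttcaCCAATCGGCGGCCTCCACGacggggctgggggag
HSP90B1 (-194 to -176): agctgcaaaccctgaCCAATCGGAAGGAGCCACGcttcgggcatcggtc
HSP90B1 (-89 to -71): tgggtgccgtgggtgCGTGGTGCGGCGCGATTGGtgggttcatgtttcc
CALR (-225 to -207): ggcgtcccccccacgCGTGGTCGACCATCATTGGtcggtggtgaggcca
XBP1 (-52 to -34): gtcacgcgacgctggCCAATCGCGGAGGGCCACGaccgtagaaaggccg

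These windows lie at chr9:125241376-125241424 for HSPA5 (minus strand), chr12:103930201-103930249 and chr12:103930306-103930354 for HSP90B1 (plus strand), chr19:12938369-12938417 for CALR (plus strand) and chr22:28800588-28800636 for XBP1 (minus strand), all in GRCh38.p14. The ER stress element II, ATTGG and CCACG separated by any 1 base, was in 19 promoters (0.0541%), among them HERPUD1 (chr16:56932010-56932050, plus strand) and SDF2L1 (chr22:21642099-21642139, plus strand, element on the opposite strand).
HERPUD1 (-117 to -107): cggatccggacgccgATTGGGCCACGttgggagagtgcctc
SDF2L1 (-188 to -178): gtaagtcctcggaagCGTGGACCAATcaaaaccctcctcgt

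Neither TGACGTGG (0.729% of all promoters) nor TGACGTGA (0.45%), 2 forms of the XBP1 binding sequence, was in these windows for any of the 10 genes. The half-site CCACG was in all 12 promoters of the 10 genes and in 38.1% of all promoters, and it is part of both elements. PDIA4, DNAJB9, SEL1L and EDEM1 held neither element in these windows. A match to letters is a description and not evidence of binding.

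Before the results, library properties that touch them are given. Between 13320 and 13640 genes reached 1 TPM in each library, replicates correlated at 0.983 to 0.991 across genes on the log2(TPM + 1) scale, and sequencing depth is unknown from TPM. All 8 AML line markers were detected in every library, from 14.6 to 497 TPM, with 5 called higher and 3 lower in both Palbo and PTCP. One library stood apart in stromal markers: Palbo replicate 2 held the highest value of 12 of the 15 detected markers of 16 listed, with COL1A1 at 22.2 TPM and COL3A1 at 17.5 TPM, against 1.32 TPM and 0.45 TPM in Palbo replicate 1. The summed stromal markers were 135 to 141 TPM in DMSO, 139 to 143 TPM in TCP, 191 and 318 TPM in Palbo and 175 to 191 TPM in PTCP, and POSTN was at 0 in all 8 libraries. A large part of these sums was IGFBP7. It stood at 109 and 103 TPM in DMSO, 105 and 95.9 TPM in TCP, 154 and 137 TPM in Palbo, and 124 and 122 TPM in PTCP. In Palbo replicate 1 it gave 154 of the 191 TPM, so that sum does not reflect raised collagens. Of the 10 stromal markers tested, 2 were called higher in Palbo, TAGLN and IGFBP7, and 1 in PTCP, TAGLN. Over all genes tested, 14.8% were called higher in Palbo and 15.9% in PTCP, so these counts do not describe the collagens named above. Their part in the results was not tested, and values without Palbo replicate 2 are given where a call rests on it. In bulk RNA, fewer cells of one type and less RNA per cell cannot be told apart.

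Across the 10 genes, the clearest change was in XBP1, whose level under palbociclib, with or without TCP, was 32.3% to 32.7% of that in the vehicle. HSPA5 and CALR rose under both treatments, HERPUD1 fell under palbociclib alone and SDF2L1 fell under the combination. Each of those calls was lost when certain single libraries were left out, and those of CALR, HERPUD1 and SDF2L1 were also lost under at least 1 other scaling. TCP alone changed none of the 10 by the test used.

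**Figure D1:**
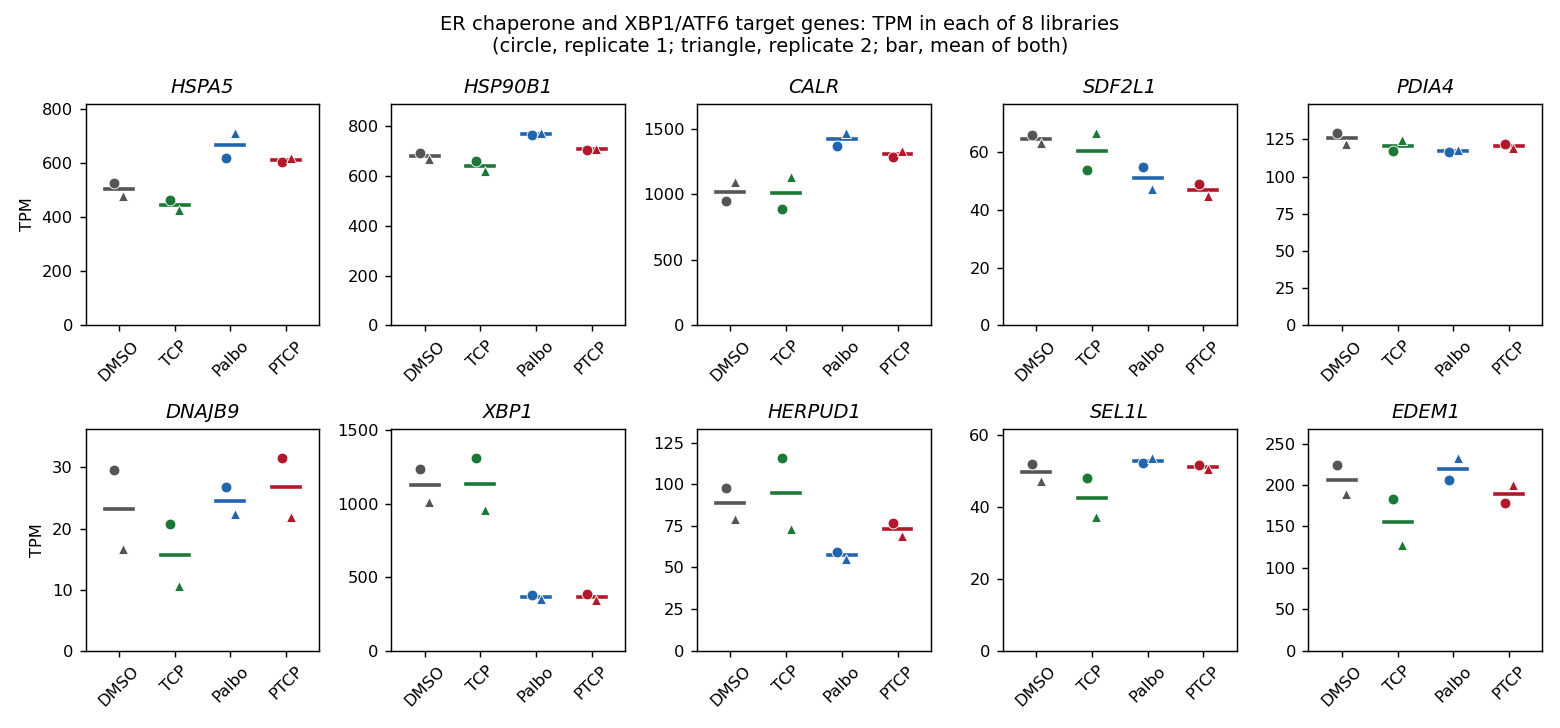
TPM (vertical axes, starting at 0) of the 10 genes in the 2 libraries of each group, with circles for replicate 1, triangles for replicate 2 and bars for the mean. XBP1 sits at 342 to 384 TPM in the 4 libraries with palbociclib and at 956 to 1312 TPM in the others, while the HSPA5 and CALR libraries with palbociclib all lie above the DMSO libraries.

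Differences were tested with limma on log2(TPM + 1) over all 14151 genes, and a gene was called at a Benjamini-Hochberg adjusted p below 0.05. With 2 libraries against 2, the smallest two-sided p of an exact permutation test is 0.333, and the calls rest on the spread that limma pools over genes and groups. Under palbociclib 2 of the 10 were called higher and 2 lower, against 14.8% and 30.2% of all genes tested. Under the combination the counts were also 2 higher and 2 lower, against 15.9% and 37.6% of all genes. These shares are near the background, so nothing about the 10 genes as a set is read from the counts. Without Palbo replicate 2 the Palbo count was 1, XBP1 alone, and with median-ratio scaling the counts were 3 higher and 1 lower under either treatment. The median log2 fold change of the 10 was 0.09 under palbociclib and -0.01 under the combination, beside medians of -0.16 and -0.22 over all genes tested. Scaling libraries by the median of their gene-wise ratios (median-ratio scaling) brought those all-gene medians to -0.01 and -0.01 and the shares called higher and lower to 20.2% and 20% for palbociclib and to 23.5% and 23.4% for the combination, so a log2 fold change below is read against this shift.

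**Figure D2:**
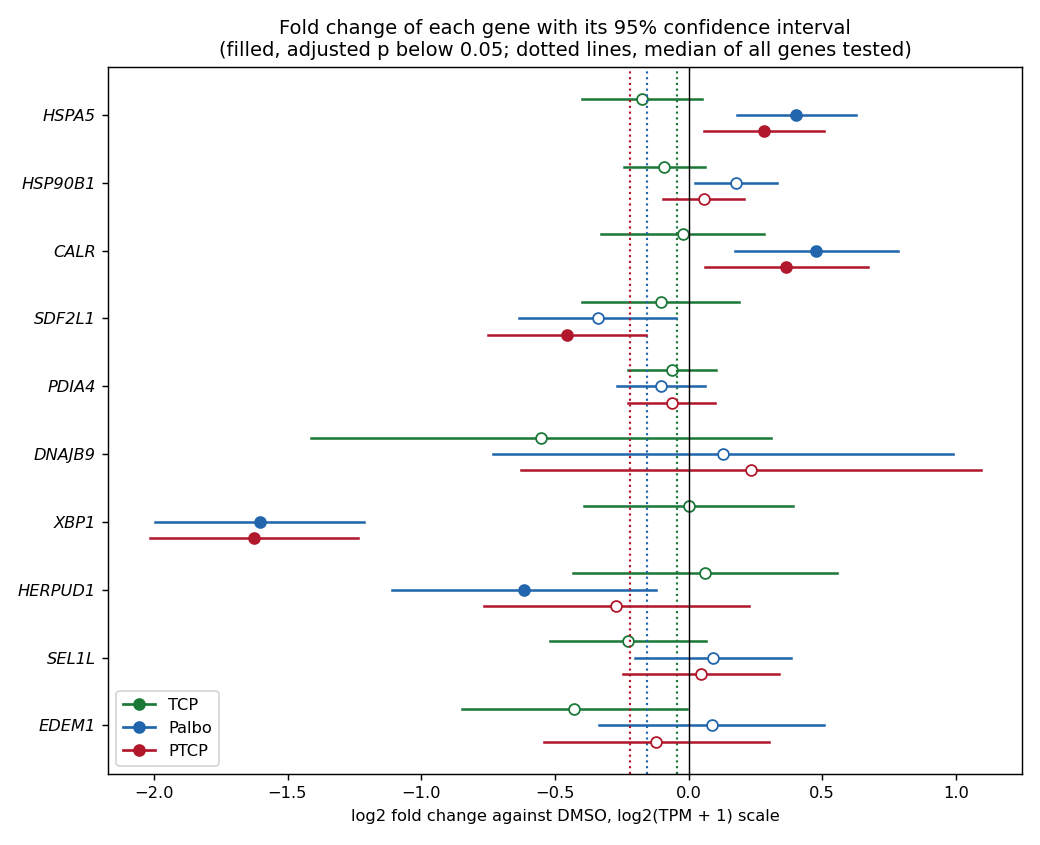
Log2 fold change against DMSO (horizontal axis, log2(TPM + 1) scale) of the 10 genes for TCP, Palbo and PTCP, with 95% confidence intervals from limma, filled points for adjusted p below 0.05 and dotted lines for the median of all genes tested. XBP1 lies near -1.6 in Palbo and PTCP and at 0 in TCP, and HSPA5 and CALR lie to the right of every median line in Palbo and PTCP.

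XBP1 (GRCh37 chr22:29190543-29196585, minus strand, protein-coding) encodes the factor described above, and gene-level TPM does not separate its spliced from its unspliced transcript. Its TPM was 1237 and 1013 in DMSO, 1312 and 956 in TCP, 382 and 353 in Palbo, and 384 and 342 in PTCP. All 4 libraries with palbociclib lay below all 4 libraries without it, by a wide margin, and the TCP libraries enclosed the DMSO libraries. The mean fell to 32.7% of the DMSO mean in Palbo and to 32.3% in PTCP, a 3.06-fold and a 3.10-fold lower level. The log2 fold change was -1.60 (SE 0.16, adjusted p = 0.000516) in Palbo and -1.62 (SE 0.16, adjusted p = 0.000293) in PTCP. XBP1 was the one gene of the 10 to pass the stricter thresholds of the study (adjusted p below 0.01 and a log2 fold change of 1 or more in size), which 4.56% of all genes passed downward in Palbo and 7.82% in PTCP. It kept its call in all 17 alternatives to the analysis for either treatment, with log2 fold changes of -1.75 to -1.44 in Palbo and -1.77 to -1.39 in PTCP.

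In DMSO, where TPM can be compared between genes because it is divided by gene length, XBP1 had the highest mean level of the 10 at 1125 ± 158 TPM (SD, n = 2), with CALR next at 1019 ± 105 TPM. Those neighbours overlapped between libraries. HSP90B1 at 680 ± 16.1 TPM, HSPA5 at 502 ± 33.5 TPM and EDEM1 at 207 ± 25.3 TPM followed, with no overlap between neighbours. Below them came PDIA4 at 126 ± 5.22 TPM, HERPUD1 at 88.6 ± 13.3 TPM, SDF2L1 at 64.7 ± 1.97 TPM, SEL1L at 49.5 ± 3.27 TPM and DNAJB9 at 23.1 ± 9.21 TPM, again with no overlap between neighbours. In Palbo and PTCP, XBP1 came next below CALR, HSP90B1 and HSPA5 in each of the 4 libraries. Its part of the summed TPM of the 10 genes was 26.9% to 30.9% in DMSO, 26.8% to 34.0% in TCP, 9.21% to 10.5% in Palbo and 9.76% to 11.0% in PTCP. The sum over the other 9 genes was 2757 to 2761 TPM in DMSO, 2548 to 2614 TPM in TCP, 3262 to 3484 TPM in Palbo and 3104 to 3165 TPM in PTCP.

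HSPA5 (GRCh37 chr9:127997132-128003661, minus strand) encodes BiP, the abundant ER member of the HSP70 family that binds unfolded chains and holds the sensors inactive. Its TPM was 526 and 478 in DMSO, 465 and 425 in TCP, 618 and 712 in Palbo, and 604 and 617 in PTCP. The libraries with palbociclib all lay above those without it, and the TCP libraries lay below the DMSO libraries. HSPA5 rose in Palbo by a log2 fold change of 0.40 (SE 0.09, adjusted p = 0.0126), which is 1.32-fold. In PTCP it rose by 0.28 (SE 0.09, adjusted p = 0.0397). Without Palbo replicate 2, the library with the raised collagens, the Palbo value was 0.30 with an adjusted p of 0.0788, and without DMSO replicate 2 it was 0.34 with an adjusted p of 0.0779. The PTCP call was lost without either DMSO library or either PTCP library (0.21 to 0.35, adjusted p = 0.0593 to 0.192), with no filter on low values (adjusted p = 0.0683) and with no trend in the moderation of limma (adjusted p = 0.0677).

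CALR (GRCh37 chr19:13049392-13055303, plus strand), a calcium-binding lectin chaperone for glycoproteins, had 945 and 1093 TPM in DMSO, 886 and 1131 TPM in TCP, 1365 and 1470 TPM in Palbo, and 1287 and 1333 TPM in PTCP. Again every library with palbociclib lay above every library without it, while the TCP libraries enclosed the DMSO libraries. CALR rose by a log2 fold change of 0.48 (SE 0.13, adjusted p = 0.0213) in Palbo and of 0.37 (SE 0.13, adjusted p = 0.0474) in PTCP. Both are close to the threshold in the main fit. With the replicate block the adjusted p of CALR was 0.00324 in Palbo and 0.00779 in PTCP. The Palbo call was lost without DMSO replicate 1, Palbo replicate 1 or Palbo replicate 2 (0.37, 0.53 and 0.42, adjusted p = 0.119, 0.054 and 0.111). The PTCP call was lost without any single DMSO, Palbo or PTCP library (0.26 to 0.47, adjusted p = 0.0546 to 0.229). Both calls were also lost with quantile normalization (0.38, adjusted p = 0.0589, in Palbo and 0.34, adjusted p = 0.0765, in PTCP) and with no filter on low values (adjusted p = 0.0512 and 0.0986), and the PTCP call with no trend (adjusted p = 0.0695). CALR overlaps an antisense gene in the annotation, and the strand setting of the counting is not given in the sources used here.

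**Figure D3:**
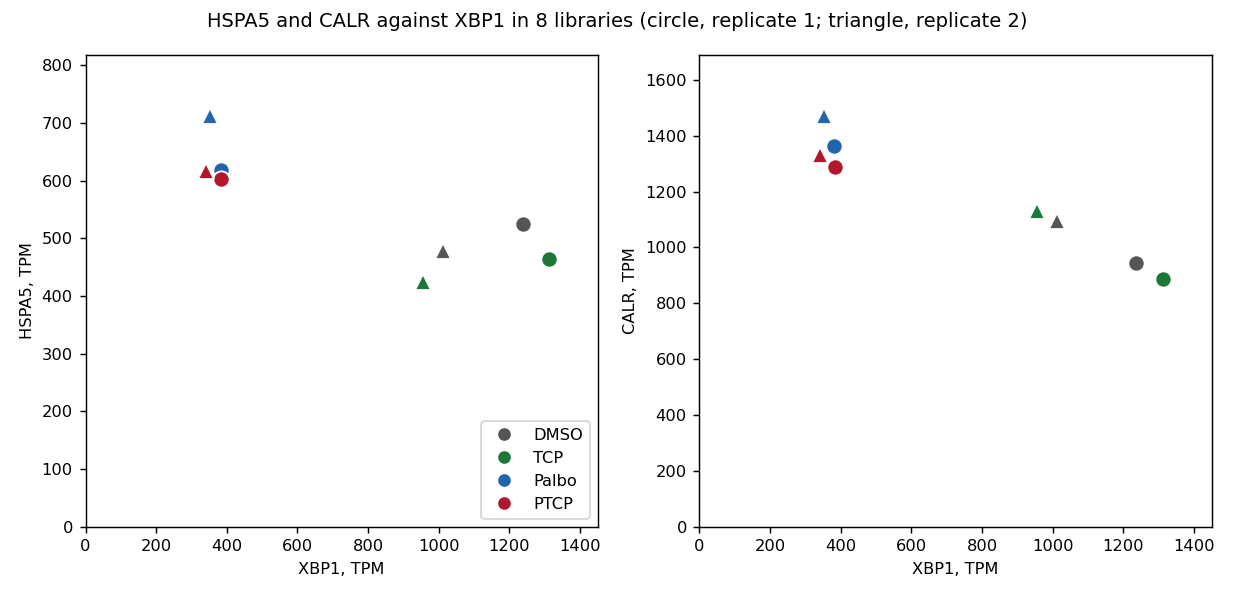
HSPA5 (left) and CALR (right) against XBP1, all in TPM with axes from 0, for the 8 libraries, coloured by group, with circles for replicate 1 and triangles for replicate 2. The Palbo and PTCP libraries sit at upper left, with XBP1 at 342 to 384 TPM, and the DMSO and TCP libraries at lower right.

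The ratio of HSPA5 to XBP1 within a library, which does not depend on the scaling of TPM, was 0.425 and 0.472 in DMSO, 0.354 and 0.444 in TCP, 1.62 and 2.01 in Palbo, and 1.57 and 1.80 in PTCP. For CALR and XBP1 the ratio was 0.764 and 1.08 in DMSO, 0.675 and 1.18 in TCP, 3.57 and 4.16 in Palbo, and 3.35 and 3.90 in PTCP. The 4 libraries with palbociclib lay above the 4 without it in both ratios.

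HSP90B1 (GRCh37 chr12:104323885-104347709, plus strand) encodes GRP94, the ER member of the HSP90 family. Its TPM was 691 and 669 in DMSO, 659 and 619 in TCP, 764 and 774 in Palbo, and 704 and 710 in PTCP. Both Palbo and both PTCP libraries lay above the DMSO libraries, but the differences were small. The log2 fold change was 0.18 (SE 0.06, adjusted p = 0.0595) in Palbo and 0.06 (SE 0.06, adjusted p = 0.494) in PTCP. Neither passed, though with the replicate block the Palbo value had an adjusted p of 0.0286, and with median-ratio scaling both passed (0.34, adjusted p = 0.00651, and 0.29, adjusted p = 0.0107). HSP90B1 overlaps 2 antisense genes, TTC41P and UQCC6, in the annotation, and MIR3652 on its own strand.

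SDF2L1 (GRCh37 chr22:21996591-21998588, plus strand), a partner of BiP and its co-chaperones, had 66.1 and 63.3 TPM in DMSO, 54.0 and 66.9 TPM in TCP, 54.9 and 47.2 TPM in Palbo, and 49.0 and 44.9 TPM in PTCP. The Palbo and PTCP libraries lay below the DMSO libraries, and the TCP libraries enclosed them. SDF2L1 fell in PTCP by 0.45 on the log2 scale (SE 0.12, adjusted p = 0.0191), and the Palbo value was -0.34 (SE 0.12, adjusted p = 0.0615). The PTCP call was lost with median-ratio scaling (-0.23, adjusted p = 0.217), with quantile normalization (-0.25, adjusted p = 0.140), and without either DMSO library or PTCP replicate 2 (-0.49 to -0.39, adjusted p = 0.0603 to 0.108).

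PDIA4 (GRCh37 chr7:148700154-148725754, minus strand), a disulfide isomerase of the BiP complex, varied little across the groups. Its 8 libraries spanned 116 to 129.5 TPM, and the log2 fold changes were -0.10 (95% confidence interval -0.27 to 0.06) in Palbo and -0.06 (-0.23 to 0.10) in PTCP. DNAJB9 (GRCh37 chr7:108210311-108215294, plus strand), an ER J-domain co-chaperone of BiP that also restrains IRE1, had 29.7 and 16.6 TPM in DMSO, 20.7 and 10.6 TPM in TCP, 26.7 and 22.3 TPM in Palbo, and 31.5 and 21.96 TPM in PTCP. All groups overlapped the DMSO libraries, and replicate 1 was the higher library in all 4 groups. The log2 fold change of DNAJB9 in Palbo was 0.13 with a 95% confidence interval of -0.73 to 0.99 and an SE of 0.36. With the replicate number as a block the SE was 0.16, and neither the Palbo value (adjusted p = 0.521) nor the PTCP value of 0.23 (adjusted p = 0.243) passed.

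Of the ERAD genes, HERPUD1 (GRCh37 chr16:56966054-56978776, plus strand), a membrane scaffold of the retrotranslocation complex, had 98.0 and 79.2 TPM in DMSO, 116 and 73.1 TPM in TCP, 59.4 and 55.1 TPM in Palbo, and 76.8 and 69.2 TPM in PTCP. The Palbo libraries were the lowest, and both treated pairs with palbociclib lay below the DMSO pair. In the annotation HERPUD1 overlaps other genes on its own strand, none of which has a value in these data. HERPUD1 fell in Palbo by 0.62 on the log2 scale (SE 0.21, adjusted p = 0.0487), and in PTCP the value was -0.27 (SE 0.21, adjusted p = 0.311). With the replicate block the adjusted p was 0.0091 in Palbo and 0.124 in PTCP. The Palbo call was lost with median-ratio scaling (-0.45, adjusted p = 0.0985), with quantile normalization (-0.49, adjusted p = 0.104), with no filter (adjusted p = 0.0909), with no trend (adjusted p = 0.0649), and without any single DMSO, Palbo or PTCP library (-0.77 to -0.46, adjusted p = 0.0682 to 0.216).

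SEL1L (GRCh37 chr14:81937891-82000197, minus strand), the adaptor of the HRD1 ubiquitin ligase, had 51.9 and 47.2 TPM in DMSO, 47.9 and 37.1 TPM in TCP, 52.1 and 53.6 TPM in Palbo, and 51.7 and 50.5 TPM in PTCP. EDEM1 (GRCh37 chr3:5229331-5261643, plus strand), which extracts misfolded glycoproteins from the folding cycle, had 224 and 189 TPM in DMSO, 183 and 127 TPM in TCP, 205 and 233 TPM in Palbo, and 179 and 200 TPM in PTCP. Neither SEL1L nor EDEM1 passed in any comparison with DMSO. EDEM1 overlaps an antisense gene in the annotation. For SEL1L the log2 fold change was 0.09 (-0.20 to 0.38) in Palbo and 0.05 (-0.25 to 0.34) in PTCP, and for EDEM1 it was 0.09 (-0.33 to 0.51) and -0.12 (-0.54 to 0.30).

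Counted by overlap alone, 4 of the 10 genes had both Palbo libraries above both DMSO libraries and 4 had both below, against 26.5% and 49.7% of all genes tested. For PTCP these counts were 3 and 4, against 26% and 54.2%. For TCP they were 0 and 3, against 12.4% and 22.3%, the 3 being HSPA5, HSP90B1 and EDEM1.

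TCP alone left the 10 genes without a call in limma, against 0.29% of all genes called higher and 0.141% lower. At an unadjusted p below 0.05 there was 1 of the 10, EDEM1, at a log2 fold change of -0.43 (SE 0.18, adjusted p = 0.559). Over all 14151 genes tested, 1241 had an unadjusted p below 0.05, so nothing is read from this count. For XBP1 the value was 0.00 with a 95% confidence interval of -0.39 to 0.39, which excludes a fall of the size seen with palbociclib. HSPA5 stood at -0.17 (-0.40 to 0.05) and CALR at -0.02 (-0.33 to 0.28). The median over the 10 was -0.10, beside -0.04 over all genes tested.

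Adding TCP to palbociclib (PTCP against Palbo) gave 0 calls among the 10 in limma, against 2.05% of all genes called higher and 1.44% lower. None of the 10 had an unadjusted p below 0.05, beside 2472 of the 14151 genes tested. XBP1 differed by -0.02 (95% confidence interval -0.41 to 0.37), HSPA5 by -0.12 (-0.34 to 0.10) and CALR by -0.11 (-0.42 to 0.19). HERPUD1 had the highest value of the 10, at 0.34 (-0.15 to 0.84, adjusted p = 0.456), with both PTCP libraries above both Palbo libraries.

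Adding palbociclib to TCP (PTCP against TCP) gave 2 calls higher and 1 lower, against 16.5% and 33.8% of all genes. XBP1 fell by 1.63 on the log2 scale (SE 0.16, adjusted p = 0.000335), HSPA5 rose by 0.46 (SE 0.09, adjusted p = 0.00661) and CALR rose by 0.39 (SE 0.13, adjusted p = 0.0412). The HSPA5 call was kept without each library in turn, with values of 0.39 to 0.52. The CALR call was lost without TCP replicate 1 or any single Palbo or PTCP library (0.21 to 0.41, adjusted p = 0.0607 to 0.167), and with no filter, no trend or only the compared groups (adjusted p = 0.0884, 0.0609 and 0.0847). With the replicate number as a block the count was 5, with DNAJB9 (0.78, adjusted p = 0.00622) and SDF2L1 (-0.35, adjusted p = 0.0495) added, and with median-ratio scaling it was 6, where HSP90B1, SEL1L and EDEM1 were added. Without TCP replicate 1 it was also 6, and without TCP replicate 2 HERPUD1 passed (-0.66, adjusted p = 0.0131). This comparison and PTCP against DMSO share the PTCP libraries.

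The departure of the combination from the sum of both single effects on the log2 scale was tested as an interaction. None of the 10 was called in limma, and none had an unadjusted p below 0.05. Over all genes tested the interaction called 0% higher and 0% lower, with 904 genes at an unadjusted p below 0.05. For XBP1 the interaction was -0.02 (95% confidence interval -0.57 to 0.53) and for HSPA5 it was 0.05 (-0.26 to 0.37). DNAJB9 had the highest value, 0.66, with an interval of -0.56 to 1.87.

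The sensors upstream of these genes differed among themselves. ERN1, whose product IRE1 splices XBP1, had 10.7 and 9.65 TPM in DMSO, 7.57 and 4.06 TPM in TCP, 10.4 and 9.92 TPM in Palbo, and 11.5 and 8.62 TPM in PTCP. The groups with palbociclib straddled the DMSO level, with a log2 fold change of 0.00 (adjusted p = 0.9999) in Palbo and -0.03 (adjusted p = 0.938) in PTCP. ATF6 had 23.99 and 24.7 TPM in DMSO, 23.99 and 19.5 TPM in TCP, 33.7 and 33.3 TPM in Palbo, and 33.5 and 31.8 TPM in PTCP. It rose by 0.45 (adjusted p = 0.0139) in Palbo and by 0.41 (adjusted p = 0.0164) in PTCP. EIF2AK3, whose product is PERK, had 14.7 and 12.8 TPM in DMSO, 12.9 and 9.18 TPM in TCP, 9.32 and 8.74 TPM in Palbo, and 9.81 and 8.21 TPM in PTCP. It fell by 0.55 (adjusted p = 0.0347) in Palbo and by 0.56 (adjusted p = 0.0281) in PTCP, and both calls were lost with median-ratio scaling (-0.40, adjusted p = 0.0724, and -0.35, adjusted p = 0.0979). The ATF6 and EIF2AK3 calls were also lost without a single library: without either DMSO library in both comparisons, without either Palbo library in Palbo, and in PTCP without either PTCP library for ATF6 and without PTCP replicate 2 for EIF2AK3 (adjusted p up to 0.160).

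Among the 7 sensors and processing proteases listed, 2 rose and 3 fell in Palbo and also in PTCP, and with median-ratio scaling 2 fell in Palbo and 1 in PTCP. The 2 and 3 are 28.6% and 42.9% of the list. Over all genes tested, 14.8% were called higher and 30.2% lower in Palbo, and 15.9% and 37.6% in PTCP. With 7 genes, nothing about the list is read from these counts. The other members named by the rule were CREB3L2 and MBTPS2. CREB3L2, an ER-anchored factor of the ATF6 kind, fell by 0.81 in Palbo and by 1.16 in PTCP. MBTPS2, the site-2 protease that releases ATF6, fell by 0.41 in PTCP but not under median-ratio scaling (-0.20, adjusted p = 0.122). Its mean was 72.5% of the DMSO mean in Palbo and 73.7% in PTCP. The list median was 0.00 in Palbo and -0.03 in PTCP, and without Palbo replicate 2 no gene of this list was called in Palbo. The MBTPS2 call was lost without either DMSO or either PTCP library (adjusted p up to 0.136) and the CREB3L2 call in Palbo without DMSO replicate 1 or Palbo replicate 2 (adjusted p up to 0.0631).

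**Figure D4:**
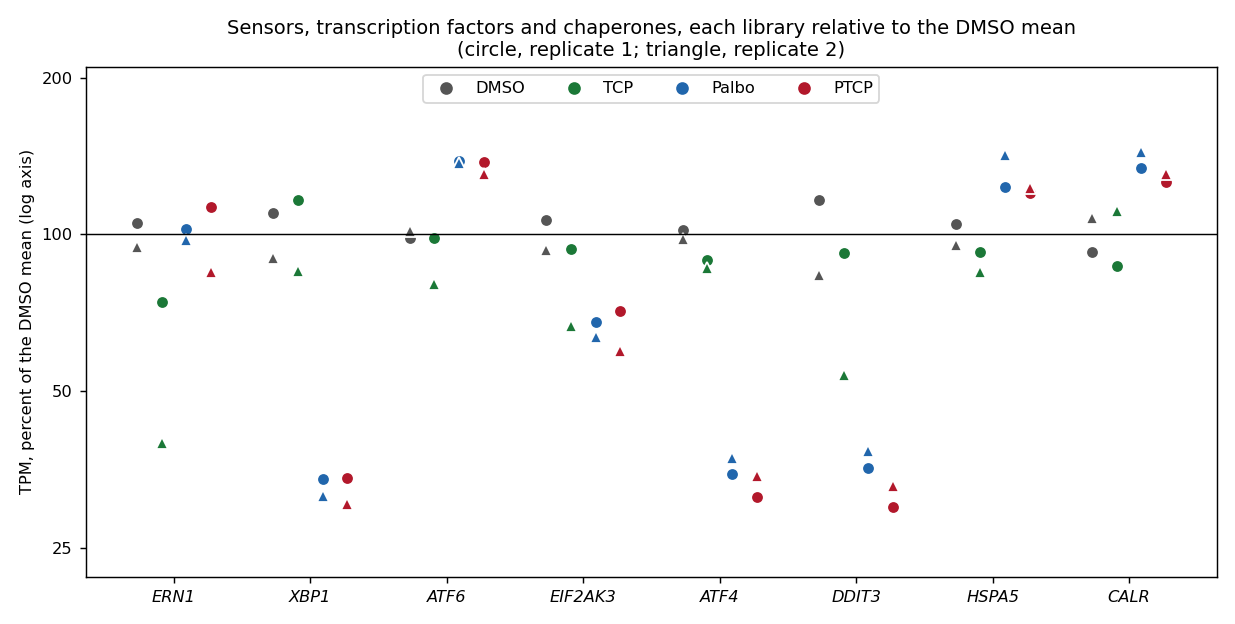
Level of 8 genes in each library as a percent of the DMSO mean (log axis), coloured by group, with circles for replicate 1 and triangles for replicate 2. With palbociclib, XBP1, ATF4 and DDIT3 lie between 30.0% and 38.4% of the DMSO mean, EIF2AK3 between 59.7% and 71.3%, ERN1 between 84.6% and 113.1%, and ATF6, HSPA5 and CALR between 120.3% and 144.2%.

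Most genes were lower in the list of the PERK and ATF4 arm, 12 genes chosen with earlier results of these data known. Whether PERK took part was not tested. In Palbo 9 of the 12 fell and 1 rose, with a list median of -1.78, and in PTCP 9 fell and 1 rose, with a median of -1.71. The 9 are 75% of the list, beside 30.2% of all genes tested called lower in Palbo and 37.6% in PTCP. ATF4, the factor itself, had 811 and 779 TPM in DMSO, 712 and 687 TPM in TCP, 275 and 295 TPM in Palbo, and 249 and 273 TPM in PTCP. Its levels with palbociclib were below all others, with log2 fold changes of -1.48 (adjusted p = 5.6e-05) in Palbo and -1.60 (adjusted p = 2.51e-05) in PTCP. DDIT3, the pro-apoptotic factor CHOP, had 133 and 95.4 TPM in DMSO, 105 and 61.5 TPM in TCP, 40.7 and 43.9 TPM in Palbo, and 34.3 and 37.5 TPM in PTCP. It fell by 1.395 in Palbo and by 1.63 in PTCP. ASNS, asparagine synthetase, fell by 3.20 in Palbo and by 3.31 in PTCP, and TRIB3, a pseudokinase induced by ATF4, fell by 3.09 and by 3.32. DDIT4, an inhibitor of mTOR signalling, fell by 2.80 in Palbo, and CHAC1, a glutathione-degrading enzyme, fell by 2.81 in PTCP. The DDIT4 mean was also low in PTCP, at 20.1% of the DMSO mean, and the CHAC1 mean in Palbo, at 14.1%. The 1 gene that rose was CEBPB, a factor that also acts in myeloid cells. The 9 and 1 calls were kept under median-ratio scaling and without Palbo replicate 2. In TCP none of the 12 was called in limma, where the lowest adjusted p was 0.05025. None of the 12 values was above 0, and their median was -0.44, beside -0.04 over all genes tested. The CEBPB mean in TCP was 70.7% of the DMSO mean.

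Other ER genes were counted from 5 lists of 86 genes, of which 85 were tested. In Palbo 18 rose and 20 fell, and in PTCP 14 rose and 33 fell, with medians of -0.10 and -0.15. These are 21.2% higher and 23.5% lower in Palbo, beside 14.8% and 30.2% of all genes tested, and 16.5% and 38.8% in PTCP, beside 15.9% and 37.6%. The PTCP shares are near those of all genes, and the counts of each list below are to be read against the same shares. This split turned with the scaling: with median-ratio scaling 24 rose and 10 fell in Palbo, and 27 rose and 12 fell in PTCP. Without Palbo replicate 2, 10 rose and 10 fell in Palbo, and without DMSO replicate 1 the Palbo count was 20 in all. In TCP none of the 85 was called by limma.

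Among 13 other ER chaperones and co-chaperones tested, 4 rose and 3 fell in Palbo, and 4 rose and 4 fell in PTCP (medians 0.05 and 0.03). With median-ratio scaling 6 rose and 1 fell in either treatment. The 7 calls in Palbo became 3 without Palbo replicate 2 and 4 without DMSO replicate 1, and the 8 in PTCP became 3 without DMSO replicate 1 or PTCP replicate 2. CRELD2, an ER stress-inducible secreted protein, rose by 0.78 in Palbo, SDF2, the paralogue of SDF2L1, by 0.59, and TOR1A, an ER ATPase, by 0.57. In PTCP SEC63, a J-domain partner of BiP at the translocon, fell by 0.59, TOR1A rose by 0.45 and SIL1, a nucleotide exchange factor of BiP, rose by 0.45. The Palbo call of TOR1A was lost without Palbo replicate 2 (adjusted p = 0.0502), its PTCP call without DMSO replicate 1 or PTCP replicate 2 (adjusted p up to 0.0969), and the SIL1 call without DMSO replicate 2 or any Palbo or PTCP library (adjusted p up to 0.201).

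Among 15 other disulfide isomerases and oxidases, 2 rose and 2 fell in Palbo, and 1 rose and 8 fell in PTCP (medians -0.17 and -0.31, with 4 rising and 3 falling in PTCP under median-ratio scaling). The number that fell in Palbo was 8 with the replicate block and 6 without either TCP library, so a lower number of falls in Palbo than in PTCP depends on the fit. With the block 3 of the 15 were called lower in PTCP against Palbo, and 0 without it. P4HB, the prototype protein disulfide isomerase, had 1534 and 1425 TPM in DMSO, 1299 and 1293 TPM in TCP, 2529 and 2716 TPM in Palbo, and 2275 and 2315 TPM in PTCP. It rose by 0.83 (adjusted p = 0.000314) in Palbo and by 0.63 in PTCP, while its partner oxidase ERO1A fell by 1.07 in Palbo and by 0.74 in PTCP. PRDX4, the ER peroxiredoxin, fell by 0.66 in Palbo, with means at 62.8% of the DMSO mean there and 61.7% in PTCP. In PTCP TMX1, a membrane-bound thioredoxin, fell by 1.06 and PDIA5, another isomerase, by 0.80. The PTCP call of ERO1A was lost with median-ratio scaling and without DMSO replicate 1 or either PTCP library (adjusted p up to 0.128).

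Among 20 other ERAD genes, 5 rose and 2 fell in Palbo, and 4 rose and 3 fell in PTCP (medians 0.06 and 0.00). With median-ratio scaling 7 rose and none fell in Palbo, and 8 rose and 1 fell in PTCP, while with the replicate block the counts were 7 and 4 in Palbo and 5 and 6 in PTCP. The 7 calls in Palbo became 3 or 4 without any single DMSO, Palbo or PTCP library, and the 7 in PTCP became 3 to 5 without a DMSO or PTCP library and 10 without TCP replicate 1. OS9, a lectin that hands misfolded glycoproteins to the SEL1L complex, had 189 and 176 TPM in DMSO, 171 and 156 TPM in TCP, 361 and 375 TPM in Palbo, and 325 and 322 TPM in PTCP. It rose by 1.01 (adjusted p = 0.00017) and by 0.83 (adjusted p = 0.000189), with both treated pairs far above the DMSO pair. EDEM2 and MAN1B1, mannosidases that mark glycoproteins for disposal, rose by 0.48 and 0.47 in Palbo, and EDEM2 by 0.54 in PTCP. DERL3, a retrotranslocation protein with 8.21 and 6.79 TPM in DMSO and 2.31 and 2.90 TPM in PTCP, fell by 1.24 in PTCP.

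Of 23 genes of translocation, signal peptidase and glycosylation, 7 rose and 9 fell in Palbo, and 4 rose and 13 fell in PTCP (medians -0.21 and -0.39, with 8 rising and 3 or 4 falling under median-ratio scaling). The 16 calls in Palbo became 7 without DMSO replicate 1 or Palbo replicate 2 and 10 without Palbo replicate 1, and the 17 in PTCP became 8 without DMSO replicate 1 or PTCP replicate 2 and 10 without PTCP replicate 1. SEC62 of the translocation channel rose by 0.86 in Palbo and SSR4 of the translocon-associated complex by 0.60, while STT3A, a catalytic subunit of oligosaccharyltransferase, fell by 0.69 in Palbo and by 0.75 in PTCP. SPCS2 of the signal peptidase fell by 0.999 and SEC61G by 0.69 in PTCP. The SEC61G call was lost with median-ratio scaling (adjusted p = 0.0504) and without DMSO replicate 1 or either PTCP library. Of 14 ER-to-Golgi transport genes, 4 fell and none rose in Palbo, and 5 fell and 1 rose in PTCP (medians -0.17 and -0.24). LMAN1, a cargo receptor, fell by 0.93 and 1.07, TMED10, another, by 0.56 and 0.54, and KDELR2, which retrieves BiP and other chaperones, by 0.55 and 0.52. The LMAN1 call in Palbo was lost without DMSO replicate 1 or Palbo replicate 2 (adjusted p up to 0.0707).

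**Figure D5:**
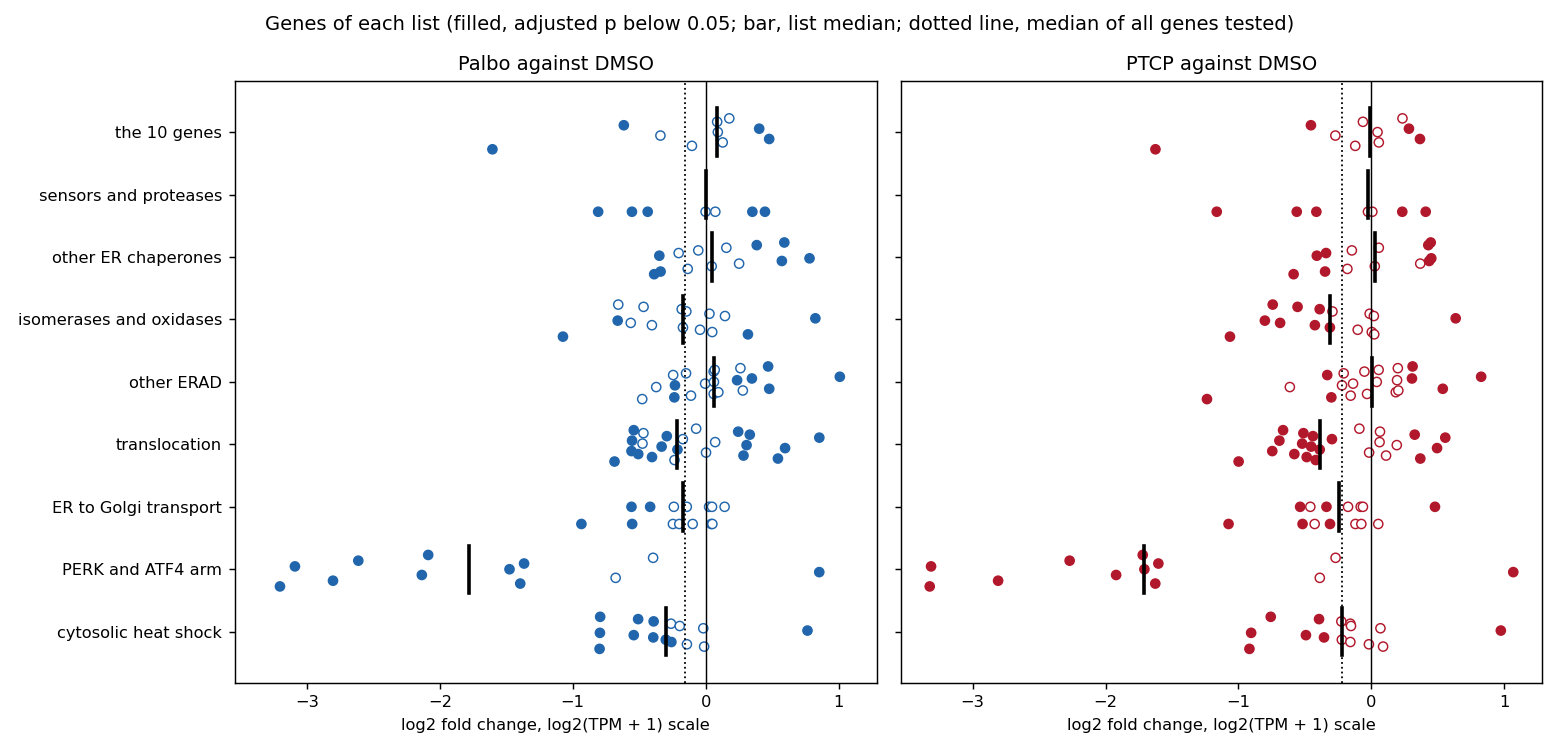
Log2 fold change (horizontal axes, log2(TPM + 1) scale) of the genes of each list in Palbo (left) and PTCP (right) against DMSO, with filled points for adjusted p below 0.05, bars for list medians and dotted lines for the median of all genes tested (-0.16 and -0.22). The PERK and ATF4 arm lies furthest to the left, with medians of -1.78 and -1.71, and the other lists straddle the dotted lines.

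Cytosolic and mitochondrial heat shock genes, which answer to a different stress programme, were also listed. In Palbo 9 of 15 fell and 1 rose, and in PTCP 6 fell and 1 rose (medians -0.30 and -0.22), but with median-ratio scaling the falls numbered 3 in each and without Palbo replicate 2 they numbered 4 in Palbo. HSPB1, a small heat shock protein, fell by 0.80 in Palbo, with means at 57.4% of the DMSO mean there and 59.2% in PTCP. The mitochondrial chaperonins HSPD1 and HSPE1 fell by 0.80 and 0.79 in Palbo and by 0.90 and 0.92 in PTCP. HSPA1A, at 4.43 and 6.67 TPM in DMSO and 11.9 and 11.5 TPM in PTCP, rose by 0.97 in PTCP, with the reservation that HSPA1A and HSPA1B are nearly identical and can exchange reads. The summed TPM of 12 monocytic markers moved with the same treatments, from 565 to 1022 TPM in DMSO and 1060 to 2030 TPM in TCP to 20301 to 22595 TPM in Palbo and 39551 to 40138 TPM in PTCP. Of these 12 markers 10 rose in Palbo, 11 in PTCP and 2 in TCP. Their part in the values above was not tested.

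Across the 8 libraries, as a description over points that share treatments, the log2 levels of HSPA5 and HSP90B1 correlated at r = 0.94 and those of SEL1L and EDEM1 at r = 0.93. XBP1 correlated at r = -0.94 with CALR and at r = -0.86 with HSPA5, but at r = 0.81 with HERPUD1, 0.80 with SDF2L1 and 0.51 with PDIA4. With HSP90B1, SEL1L, DNAJB9 and EDEM1 its r was -0.75, -0.47, -0.37 and -0.30. Among 11098 other genes with a mean of at least 5 TPM, the 10 whose levels were most like those of HSPA5 over the 8 libraries were VPS8, MROH1, PLCG2, MT1H, TRIM21, MAN1B1, PCMT1, HKR1, FNDC3B and TSPAN32, at r = 0.979 to 0.991. VPS8, the first of them, had 8.43 and 7.59 TPM in DMSO, 7.55 and 6.32 TPM in TCP, 11.99 and 14.7 TPM in Palbo, and 12.2 and 12.1 TPM in PTCP. MAN1B1 was the 1 gene of these 10 that was also on an ER list.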

How the data were processed

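Gene expression of MV4-11 cells was measured by RNA-seq from the Illumina Stranded mRNA Prep kit in 4 groups of 2 libraries. The deposited values are TPM that the authors computed: reads were mapped to hg19 (GRCh37) with Subread, counted per gene with featureCounts (1.6.4) and converted to TPM, and the submitters' processing notes also list SAMtools (1.9) and DESeq2 (1.26.0). The annotation, gene lengths and strand setting are not given in the sources used here, and TPM hold no counts, so the count test that the authors ran was replaced by limma (3.58.1, R 4.3.3) on log2(TPM + 1). Genes that reached 1 TPM in 2 or more libraries entered 1 fit over all 8 libraries with a coefficient per group and a mean-variance trend, and p-values were adjusted by Benjamini-Hochberg over 14151 genes. The fit was tested on simulated data. A few abundant genes can lower all other TPM of a library, and fold changes on this scale understate those of genes near 1 TPM.

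The 10 genes and the gene lists were chosen with earlier results of these data known. Named beyond the 10 were, per list and treatment, at most 3 called genes with the largest absolute log2 fold change and a higher-group mean of 5 TPM or more, besides ERN1, ATF6, EIF2AK3, ATF4 and DDIT3. CEBPB was named after its values were seen. After subtraction of group means, libraries with the same replicate number correlated at 0.169 to 0.491 in all 6 pairs of groups. The numbers were therefore taken to pair them, on the strength of the values and not of the labels. The main fit left this pairing out, so its SEs, adjusted p-values and counts ignore it. The replicate block, which uses the pairing, was run as an alternative only. Gene positions are from GENCODE (v44lift37), and promoters from RefSeq (GRCh38.p14). Alternatives were other pseudocounts, filters, scalings, a replicate block, no trend, the compared groups alone, the study's thresholds and each library left out.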

Additional observations from a re-analysis of the deposited data

How the results depend on the processing

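Among 1010 single-gene values recomputed under alternatives, 937 kept their side of the threshold, 53 lost a call and 20 gained one. No called value changed sign, whereas 54 uncalled values of 23 results did (-0.27 to 0.21). The fall of XBP1 kept its call in all alternatives of the 3 comparisons that contain palbociclib on one side only. The cause of the changes below was not tested.

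Of the 10 genes, 4 were called in Palbo, 2 higher and 2 lower. With the replicate block 3 were higher and 2 lower, and with the compared groups alone 2 higher and 3 lower. The count was 2 with no filter on low values, 2 with quantile normalization and 1 at the study's thresholds. Leaving out 1 library gave 1 to 6. In PTCP the 4 calls became 2 with no filter, 2 with quantile normalization, 2 with no trend in the moderation and 1 at the study's thresholds, and 1 to 4 with a library left out. For PTCP against TCP the 3 calls became 6 with median-ratio scaling, 5 with the replicate block and 1 at the study's thresholds, and 2 to 6 with a library left out.

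Of the 85 other ER genes, the 38 called in Palbo became 2 at the study's thresholds and 20 to 47 with a library left out. The 47 called in PTCP became 3 and 25 to 51, and the 43 called in PTCP against TCP became 0 and 17 to 42. The replicate block gave 53, 54 and 52 for these 3 comparisons. For PTCP against Palbo the count of 0 in limma became 8 with the replicate block and 0 to 1 with a library left out. The interaction gave no value when only the groups compared entered the fit, since it needs all 4.

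Depth is unknown from TPM, and 2 libraries a group limit the precision. For DNAJB9, precision depended on the fit, with an SE of 0.36 without and 0.16 with the replicate block.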
